A study of Homo sapiens with 24 samples.

Results

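The response of SIRT6-transfected HEK293 cells to TNFα was measured on 6 of the 24 arrays of the series, the 3 arrays titled as sirtuin 6 transfected and stimulated with TNFα and the 3 arrays titled as sirtuin 6 transfected, and every probe set of the deposited value table was read. HEK293 is a human embryonic kidney cell line. SIRT6 + TNFα cells (n = 3) were transfected for 24 h with a pcDNA3 plasmid for Flag-tagged wild type human SIRT6 and then given 10 ng/ml TNFα, and SIRT6 cells (n = 3) received the same plasmid and, per the methods of the study, the carrier solution alone. Stimulation lasted 4 h according to the methods and 1 h according to the series description, and the files do not settle which. The other 18 arrays were untransfected, empty vector and H133W cells, H133W being a SIRT6 mutant without deacetylase activity, each taken with and without TNFα (n = 3 each), and they were used here to estimate the spread and to compare responses.

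Transfection was transient, so that only a part of the cells of a well took up the plasmid, while the RNA came from the whole well. The values are therefore averages over transfected and untransfected cells, and a lower value can stand for less RNA per cell or for fewer cells that carry the transcript, which cannot be told apart. The sample titles call the 3 replicates biological, but do not say whether they were separate cultures on separate days. The p values measure the spread between these arrays. Values are log2 RMA expression values, on which a difference of 1 is a doubling, and they compare arrays for a given probe set, not genes with each other. A transcript was called up or down where limma gave an adjusted p under 0.05 together with a change of more than 1.5-fold. The thresholds follow the methods of the study, which used a general linear model in other software.

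TNFα is an inflammatory cytokine that binds receptors of the TNF receptor superfamily. In resting cells, dimers of NFκB proteins such as RelA/p65 and NFκB1/p50 are held in the cytoplasm by IκB proteins. Receptor engagement activates the IκB kinases, IκBα is phosphorylated and degraded, and the freed NFκB enters the nucleus, where it drives genes for chemokines, adhesion molecules and its own inhibitors. SIRT6 is a nuclear NAD+-dependent deacetylase of histone H3, and it has been described to act on promoters bound by NFκB.

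TNFα changed a small set of transcripts in SIRT6-transfected cells, with large rises among chemokines, adhesion molecules, NFκB subunits and inhibitors of NFκB, and smaller falls of genes such as OR51E1, PHACTR3 and SSTR1. Of 54675 probe sets, 275 were called up (0.503%) and 187 were called down (0.342%). The rises had a median log2 change of 0.92 (1.9-fold) and reached 6.02, and the falls had a median of -0.72 (1.64-fold) and reached -2.07, beside a median of -0.0191 over all probe sets. Among the called probe sets 18 were more than 8-fold higher and none was more than 8-fold lower, and 175 of the 187 falls were under 2-fold. All 275 rises had the 3 SIRT6 + TNFα arrays above the 3 SIRT6 arrays, and all 187 falls had them below, while 8.32% of all probe sets were separated upwards and 15.2% downwards. At an adjusted p under 0.05 with no fold threshold, 503 probe sets were higher (0.92%) and 638 were lower (1.17%).

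**Figure D1:**
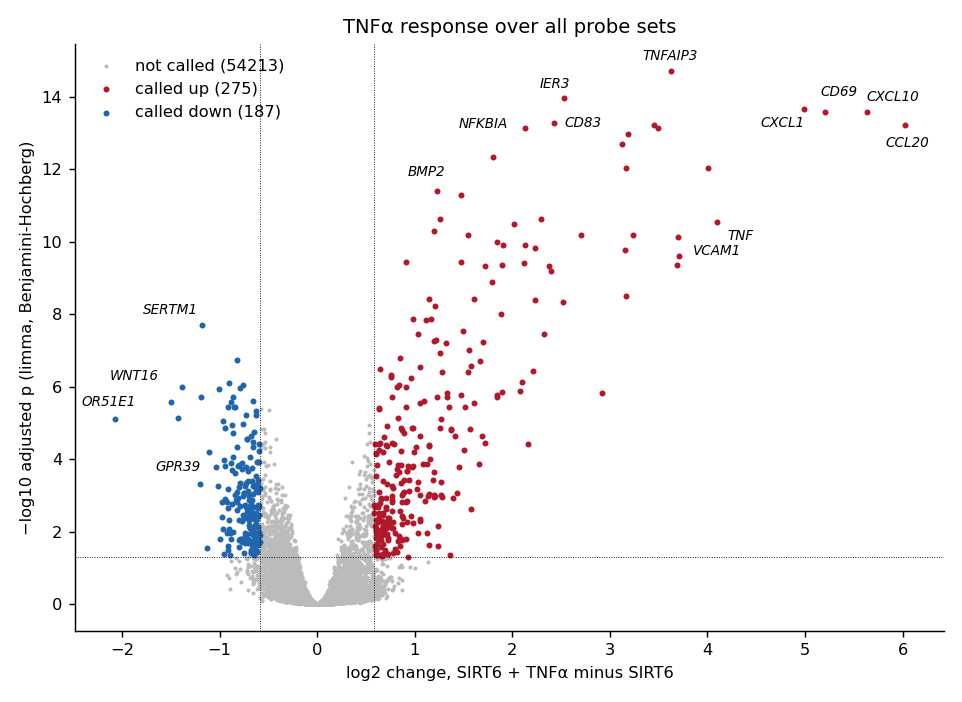
Log2 change (SIRT6 + TNFα minus SIRT6) against −log10 of the limma adjusted p for each of the 54675 probe sets, with dotted lines at a fold change of 1.5 and an adjusted p of 0.05. The 275 rises extend to a log2 change of 6.02 (CCL20), the 187 falls to -2.07 (OR51E1).

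Each gene was read by its probe set with the highest mean over the 24 arrays, among probe sets given to that gene alone. By this reading 154 of 19775 genes were called up (0.779%) and 100 were called down (0.506%), and the median log2 change of all genes was -0.0276. Of 217 genes that had a called probe set and more than 1 probe set, 29 had all of them called, 188 had some called and 0 had calls in opposite directions. TNFAIP3 (log2 changes of 3.63 and 3.45), NFKBIA (2.13 and 1.79) and the zinc-sensing receptor GPR39 (-0.96, -0.84 and -1.04) gave similar changes on each of their probe sets. For CXCL2 (3.69, 0.92 and 0.32), SSTR1 (-1.43 and -0.0311) and the platelet-derived growth factor receptor PDGFRA (-1.20, -0.23, -0.0637 and -0.0379) the probe sets differed. The array annotation does not show which transcript forms they read.

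SIRT6 itself is read by 2 probe sets, and neither was called. The brighter had values of 9.35, 9.62 and 9.33 in SIRT6 + TNFα cells, and 9.33, 9.37 and 9.31 in SIRT6 cells (log2 change 0.10, SE 0.29, adjusted p = 0.965), and the other changed by -0.0699 (SE 0.10, adjusted p = 0.897). The 6 arrays overlapped on both. Neither passed the test between SIRT6 and empty vector cells without TNFα either (log2 changes of 0.75 and 0.0686, adjusted p = 0.749 and 1), and whether they read the part of SIRT6 that the plasmid carries is not given in the sources used here, so that they do not check the transfection. The study itself checked expression of the transfected protein in these cells by Western blot. The 6 arrays had weights of 0.792 to 1.86 in limma, inside the range of the other 18 (0.0844 to 3.1). Their β-actin probe sets differed by 1.52 to 1.76 log2 units between the 3′ and the 5′ end of the transcript, a sign of RNA quality, against 1.33 to 3.03 on the other arrays. Of 11 measured genes that mark HEK293 cells, neurofilament light chain NEFL averaged 12.33 ± 0.0524 in SIRT6 + TNFα cells and 12.36 ± 0.10 in SIRT6 cells (SD, n = 3 each), and vimentin VIM 11.61 ± 0.0229 and 11.75 ± 0.027. Of the early kidney genes on the list EYA1 was called down (log2 change -0.81, adjusted p = 0.00115) and PAX2 below the fold threshold (-0.56, adjusted p = 0.00227). The mean of the HEK293 list was 8.34 to 8.40 in SIRT6 + TNFα cells and 8.53 to 8.55 in SIRT6 cells. None of 11 leukocyte markers was called (list mean 3.44 to 3.53 in SIRT6 + TNFα cells, 3.50 to 3.56 in SIRT6 cells), and none of 10 endothelial markers (3.81 to 3.97, against 3.94 to 4.0). Over all genes 0.779% were called up and 0.506% down. Of 12 fibroblast markers PDGFRA was called down, and the mean of that list was 4.94 to 4.97 in SIRT6 + TNFα cells and 5.04 to 5.18 in SIRT6 cells. The part of these shifts in the results was not tested.

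NFκB binds a 10-base consensus in the promoters of many of its target genes, and promoters of genes that rose together are shown here for that reason. Promoter sequences of 300 bases, 250 before the start of the gene and 50 after, were taken from RefSeq (GRCh38.p14) for 15384 of the 19775 genes, among them 120 of the 154 genes called up and 72 of the 100 called down. The NFκB consensus was searched on both strands, where its matches may overlap each other, and is in capitals below. CXCL1 (chr4:73869143-73869442, plus strand) and CXCL2 (chr4:74099146-74099445, minus strand), chemokine genes of 1 cluster whose proteins attract neutrophils, hold the same 11 bases, read as 2 matches, the first beginning 79 and 78 bases before the start. CCL20 (chr2:227813592-227813891, plus strand), which attracts lymphocytes and dendritic cells, has 1 match that begins 79 bases before the start. VCAM1 (chr1:100719492-100719791, plus strand), an adhesion receptor for leukocytes, has 1 match that begins 62 bases before the start. TNFAIP3 (chr6:137867009-137867308, plus strand) and NFKBIA (chr14:35404700-35404999, minus strand) encode A20 and IκBα, inhibitors of NFκB, and hold 2 matches and 1 match, the first beginning 67 and 81 bases before the start.
CXCL1: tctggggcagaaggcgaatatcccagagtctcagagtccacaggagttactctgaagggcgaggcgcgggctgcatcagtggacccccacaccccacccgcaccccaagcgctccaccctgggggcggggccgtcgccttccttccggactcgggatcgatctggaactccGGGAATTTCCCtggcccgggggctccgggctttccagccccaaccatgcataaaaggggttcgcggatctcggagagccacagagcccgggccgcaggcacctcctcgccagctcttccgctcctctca
CXCL2: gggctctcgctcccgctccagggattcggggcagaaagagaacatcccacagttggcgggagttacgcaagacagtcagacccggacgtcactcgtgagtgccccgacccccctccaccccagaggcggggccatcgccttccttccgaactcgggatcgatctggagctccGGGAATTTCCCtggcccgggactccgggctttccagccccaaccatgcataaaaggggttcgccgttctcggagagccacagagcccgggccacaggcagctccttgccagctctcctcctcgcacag
CCL20: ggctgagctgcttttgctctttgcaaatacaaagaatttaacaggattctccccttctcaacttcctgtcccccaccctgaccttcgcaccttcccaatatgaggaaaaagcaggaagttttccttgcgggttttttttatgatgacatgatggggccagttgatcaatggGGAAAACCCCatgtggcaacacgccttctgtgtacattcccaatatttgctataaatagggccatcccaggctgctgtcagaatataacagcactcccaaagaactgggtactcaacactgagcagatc
VCAM1: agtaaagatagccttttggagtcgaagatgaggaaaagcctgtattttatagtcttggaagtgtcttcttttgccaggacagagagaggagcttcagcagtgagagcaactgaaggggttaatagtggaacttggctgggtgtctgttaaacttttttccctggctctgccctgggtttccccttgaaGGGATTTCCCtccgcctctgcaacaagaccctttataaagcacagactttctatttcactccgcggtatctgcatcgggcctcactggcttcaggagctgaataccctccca
TNFAIP3: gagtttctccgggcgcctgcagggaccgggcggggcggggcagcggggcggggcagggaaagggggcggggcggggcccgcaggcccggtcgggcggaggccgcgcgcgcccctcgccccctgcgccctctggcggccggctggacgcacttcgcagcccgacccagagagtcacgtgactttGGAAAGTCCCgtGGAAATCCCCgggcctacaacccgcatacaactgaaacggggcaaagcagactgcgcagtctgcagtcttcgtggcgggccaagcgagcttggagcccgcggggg
NFKBIA: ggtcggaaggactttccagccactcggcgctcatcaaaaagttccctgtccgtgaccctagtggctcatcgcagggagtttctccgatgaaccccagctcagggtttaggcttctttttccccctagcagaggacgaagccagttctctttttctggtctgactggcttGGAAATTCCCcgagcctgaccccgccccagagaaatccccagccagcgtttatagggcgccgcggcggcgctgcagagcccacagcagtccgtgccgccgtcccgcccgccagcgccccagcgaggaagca

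A match to the NFκB consensus stood in 13 of the 21 promoters of genes that were called up over 4-fold (61.9%), in 15 of 41 called up 2- to 4-fold (36.6%), and in 8 of 58 called up under 2-fold (13.8%). Among genes called down it was found in 8 of 72 (11.1%), and among all 15384 promoters in 1896 (12.3%). CXCL3 (GGGAATTTCC), E-selectin SELE (GGGGATTTCC) and CXCL10 were further strong rises with a match, while TNF and CXCL8 had none in this window. The AP-1 motif TGANTCA, on both strands, stood in 2 of the 21 strongest rises (9.52%), in 6 of 41 and 8 of 58 of the others, in 5 of 72 genes called down (6.94%), and in 6.06% of all promoters. The letters TATAAA, on the strand of the gene, stood in 20 of 120 genes called up (16.7%), 4 of 72 called down (5.56%) and 6.17% of all. A motif of the interferon response, GAAA repeated after 2 bases, on both strands, stood in 11 of the 120 genes called up (9.17%), 2 of 72 called down (2.78%) and 2.97% of all. The promoters of the 21 strongest rises had a median GC content of 57.7%, beside 67.3% for the genes called down and 62.7% for all. These matches describe sequence and were given no test, and the part of base composition in them was not tested.

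**Figure D2:**
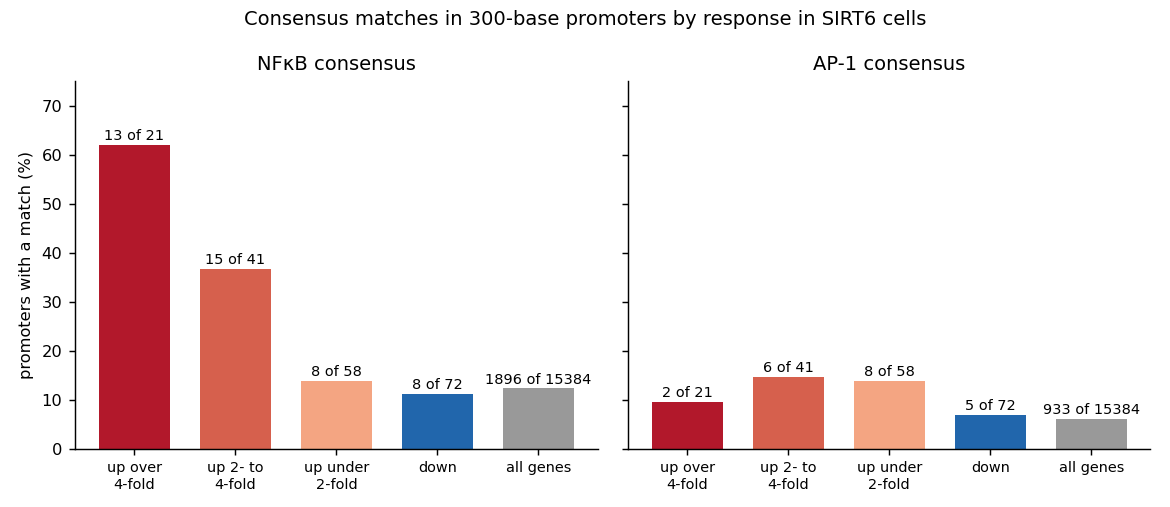
Percentage of 300-base promoters that hold a match to the NFκB consensus (left) or the AP-1 motif (right), for genes called up by size of rise, genes called down, and all measured genes with a promoter. Numbers above the bars are promoters with a match of all promoters in the set, and the NFκB share goes from 61.9% of the strongest rises to 12.3% of all genes.

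Chemokines, secreted proteins that attract leukocytes, made up 7 of the 15 largest rises. Of 24 measured chemokines of a list of 25, 11 were called up and 0 down, and the median change of the list was 0.29. CCL20 had values of 10.23, 10.50 and 10.49 in SIRT6 + TNFα cells, and 4.43, 3.76 and 4.96 in SIRT6 cells. The SIRT6 arrays spread over more than a log2 unit, and still lay far below all 3 stimulated arrays, and the gene was 65.1-fold higher (log2 change 6.02, SE 0.20, adjusted p = 6.11e-14). CXCL10, which attracts activated T cells through the receptor CXCR3, had values of 8.98, 8.88 and 9.04 in SIRT6 + TNFα cells, and 3.31, 3.53 and 3.16 in SIRT6 cells (49.6-fold, adjusted p = 2.62e-14). CCL2, also named MCP1, draws monocytes into inflamed tissue, and had values of 8.86, 9.32 and 9.20 in SIRT6 + TNFα cells, and 5.56, 4.95 and 4.86 in SIRT6 cells. It was 16-fold higher (log2 change 4.0, SE 0.16, adjusted p = 8.92e-13), with SIRT6 replicate 1 above the other two.

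The neutrophil attractants CXCL1, CXCL2, CXCL3 and CXCL8 rose together. CXCL1 had values of 8.36, 8.37 and 8.47 in SIRT6 + TNFα cells, and 3.22, 3.55 and 3.46 in SIRT6 cells (31.8-fold, adjusted p = 2.16e-14). CXCL8, or interleukin 8, had values of 8.64, 8.69 and 8.66 in SIRT6 + TNFα cells, and 5.46, 5.28 and 5.70 in SIRT6 cells (9.1-fold, adjusted p = 1.06e-13). The stimulated arrays agreed to within 0.0209 (SD, n = 3) for CXCL8, and the groups were widely separated on both genes. The other probe set of CXCL8 rose 3.29-fold (log2 change 1.72, adjusted p = 3.53e-05). CXCL2 rose 12.9-fold and CXCL3 11.3-fold (adjusted p = 4.39e-10 and 7.11e-14). The brightest probe sets of CXCL2 and CXCL8 are of the type that the maker marks as able to bind other transcripts, and CXCL1, CXCL2 and CXCL3 are similar in sequence, so that their shares of the signal cannot be told apart. CXCL6 (log2 change 2.71), CXCL11 (1.51), CCL7 (1.37) and CXCL5 (1.05) completed the 11 called members. Chemokines that were not called included CXCL9 (0.0578), CCL5 (-0.0313), CXCL12 (-0.42) and CX3CL1 (-0.03).

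Most of these genes lie in clusters, in which called and uncalled genes were interspersed. In the order of the RefSeq annotation, 9 genes on chromosome 4 from CXCL8 to CXCL2 were all measured and 6 of them were called up. The platelet chemokine genes among them, PF4V1 (-0.00186), PF4 (-0.11) and PPBP (0.11), were not called, although they lie between CXCL6 and CXCL5. None of the 6 measured genes among the nearest 4 on each side was called, among them albumin ALB (-0.12) and MTHFD2L (0.0535). Further along the same chromosome CXCL10 and CXCL11 were called up beside CXCL9 (0.0578) and ART3 (-0.0491). On chromosome 17 CCL2, CCL7 and CCL1 (log2 change 1.03, adjusted p = 0.000418) were called up, CCL11 (-0.0838) and CCL8 (-0.0203) between them were not, and 0 of 7 measured flanking genes were called. Counts of 0 in so few flanking genes are near the share over all genes (0.779% up and 0.506% down). The flanking gene TMEM132E changed by -0.54 (adjusted p = 0.000265 in limma), below the fold threshold. These clusters were chosen after the values were seen.

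**Figure D3:**
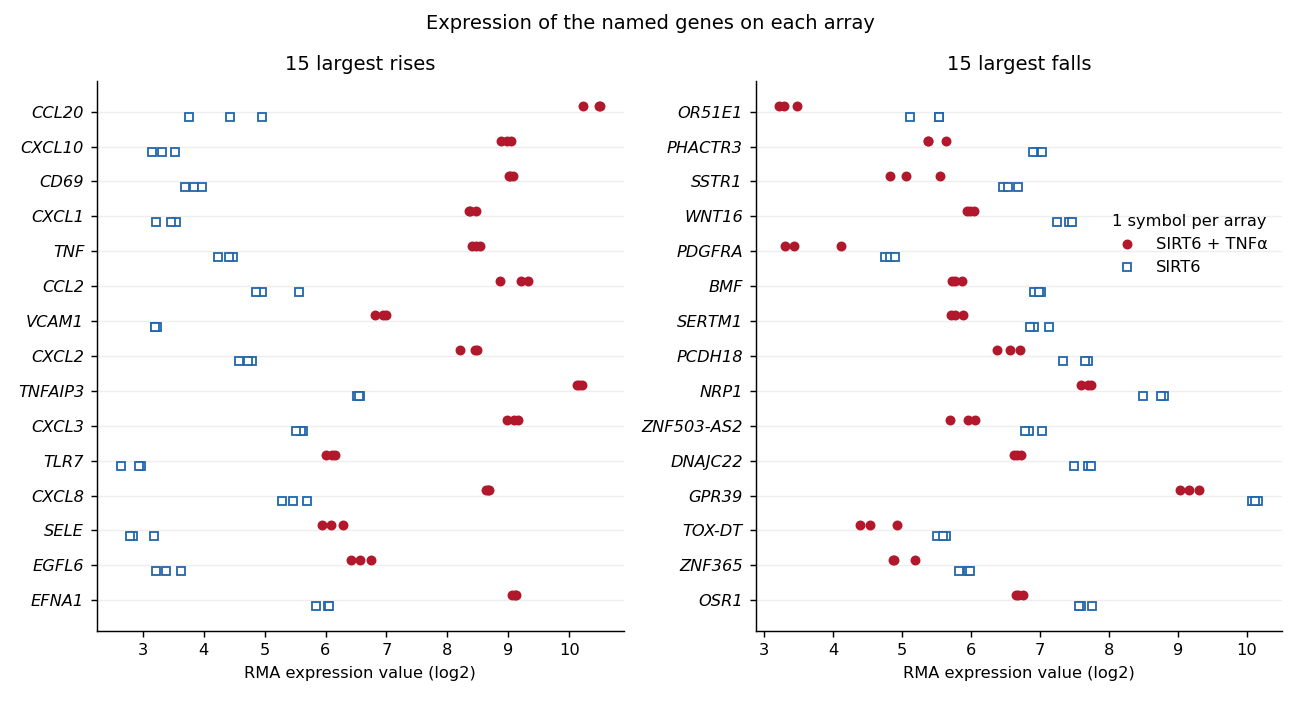
Log2 RMA values of the 15 largest rises (left) and the 15 largest falls (right), with 1 symbol per array, filled circles for SIRT6 + TNFα and open squares for SIRT6 (n = 3 each). On all 30 genes the stimulated arrays lie to one side of the unstimulated arrays, from 6.02 log2 units above for CCL20 to 2.07 below for OR51E1.

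Genes of the NFκB system itself had the largest share of calls of the 27 lists, with 6 of 10 measured members called up and a list median of 1.07. NFKBIA, which encodes IκBα, had values of 10.52, 10.62 and 10.53 in SIRT6 + TNFα cells, and 8.45, 8.45 and 8.38 in SIRT6 cells. It was 4.38-fold higher (log2 change 2.13, SE 0.0724, adjusted p = 7.11e-14), and no stimulated array came near an unstimulated one. RELB, a subunit of the alternative NFκB pathway, had values of 7.90, 7.99 and 7.78 in SIRT6 + TNFα cells, and 5.77, 6.05 and 5.60 in SIRT6 cells (4.23-fold, adjusted p = 1.28e-06). The precursor genes NFKB2 and NFKB1 rose 2.87- and 2.81-fold, the atypical IκB gene NFKBIZ 2.22-fold, and REL had a log2 change of 0.98 (adjusted p = 3.6e-06, 2.83e-08, 4.22e-05 and 0.000159). RELA, the gene of the p65 subunit, had values of 10.73, 10.77 and 10.76 in SIRT6 + TNFα cells, and 10.57, 10.77 and 10.57 in SIRT6 cells. These overlapped and were not called (log2 change 0.11, SE 0.065, adjusted p = 0.611). NFKBIE and NFKBIB had changes of 0.37 and 0.30 (adjusted p = 0.285 and 0.0802).

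Of 23 measured feedback inhibitors, 3 were called up, beside 0.779% of all genes. TNFAIP3, or A20, a ubiquitin-editing enzyme that ends signalling from the TNF receptor, had values of 10.16, 10.13 and 10.21 in SIRT6 + TNFα cells, and 6.57, 6.51 and 6.55 in SIRT6 cells. It had the smallest p of all probe sets (12.4-fold, log2 change 3.63, SE 0.0904, adjusted p = 1.89e-15). ZFP36, which binds and destabilises cytokine mRNA, rose 1.83-fold and the cytokine signalling suppressor SOCS2 1.59-fold (adjusted p = 0.00153 and 6.51e-05). The deubiquitinase CYLD (log2 change 0.52), the A20-binding TNIP1 (0.43), ZC3H12C (0.51), ZFP36L1 (0.39) and PELI1 (0.42) passed at an adjusted p under 0.05 but stayed below the fold threshold. SOCS3 (-0.30, adjusted p = 0.278) did not pass.

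Of the TNF superfamily, 2 of 16 measured ligands were called up, TNF among them, and of 23 measured receptors 1 up and 1 down. Over all genes 0.779% were called up and 0.506% down. TNF had values of 8.40, 8.54 and 8.47 in SIRT6 + TNFα cells, and 4.48, 4.41 and 4.23 in SIRT6 cells (17.1-fold, log2 change 4.10, SE 0.20, adjusted p = 2.81e-11), so that the transcript of the added cytokine was itself far above its unstimulated level on every array. TNFSF15 was the other of 16 measured ligands called, at 4.94, 4.92 and 4.42 in SIRT6 + TNFα cells, and 3.99, 3.89 and 3.93 in SIRT6 cells (1.77-fold, adjusted p = 0.0365). This call was lost without any 1 of the 3 SIRT6 arrays (adjusted p = 0.101, 0.145 and 0.0997) and without SIRT6 + TNFα replicate 1 or 2 (adjusted p = 0.188 and 0.16). Of 23 measured receptors, TNFRSF9, or 4-1BB, a costimulatory receptor of T cells, was called up with values of 7.97, 8.08 and 8.20 in SIRT6 + TNFα cells, and 5.25, 5.01 and 5.21 in SIRT6 cells (7.58-fold, adjusted p = 1.47e-06). TNFRSF19, an orphan member of the family, was called down at 7.72, 7.77 and 7.75 in SIRT6 + TNFα cells, and 8.68, 8.57 and 8.42 in SIRT6 cells (1.75-fold lower, adjusted p = 0.000151). The receptors of TNFα itself, TNFRSF1A (log2 change -0.24, adjusted p = 0.332) and TNFRSF1B (0.16, adjusted p = 0.719), were not called. Of 27 measured members of the receptor signalling complex the kinase MAP3K8 alone was called (log2 change 1.84, adjusted p = 1.64e-06), while BIRC2, or cIAP1, changed by 0.54 (adjusted p = 0.000139) below the fold threshold.

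Adhesion and surface proteins followed, with 7 of 28 measured members called up and 0 down by their brightest probe sets. A dimmer probe set of the list member SDC1 was called down (log2 change -0.59, adjusted p = 0.000121 in limma). CD69, an early activation antigen of lymphocytes, had values of 9.01, 9.02 and 9.08 in SIRT6 + TNFα cells, and 3.84, 3.97 and 3.69 in SIRT6 cells (36.9-fold, adjusted p = 2.62e-14). VCAM1 had values of 6.94, 7.0 and 6.81 in SIRT6 + TNFα cells, and 3.20, 3.24 and 3.20 in SIRT6 cells (13-fold, adjusted p = 7.31e-11). SELE had values of 6.09, 6.29 and 5.95 in SIRT6 + TNFα cells, and 3.19, 2.84 and 2.79 in SIRT6 cells (8.98-fold, adjusted p = 8.92e-13). These antigens are best known from lymphocytes and endothelium. The lists of 11 leukocyte and 10 endothelial markers gave 0 calls, near the share over all genes (0.779% up and 0.506% down). CD83 rose 5.4-fold and the heparan sulphate proteoglycan SDC4 4.72-fold, and NINJ1 and tissue factor F3 rose with log2 changes of 0.67 and 0.64. ICAM1 had a change of 0.57 (SE 0.16) that did not pass (adjusted p = 0.0836).

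Several secreted and enzymatic effectors of inflammation were higher with TNFα. Of 32 measured members 6 were called up, beside 0.779% of all genes. The soluble pattern receptor PTX3 had values of 7.33, 7.37 and 7.37 in SIRT6 + TNFα cells, and 5.01, 5.13 and 4.81 in SIRT6 cells (5.19-fold, adjusted p = 4.67e-10). PTGES, the terminal synthase of prostaglandin E2, rose 3.69-fold, the protease inhibitors TFPI2 and SERPINA3 rose 2.98- and 2.62-fold, and the matrix protein tenascin C, TNC, rose 2.94-fold. The urokinase gene PLAU had a log2 change of 0.82 (adjusted p = 0.000183). The mitochondrial dismutase SOD2, a common TNFα target, had 12.11 ± 0.0417 in SIRT6 + TNFα cells and 12.11 ± 0.12 in SIRT6 cells (SD, n = 3 each), a log2 change of 0.00376. PTGS2 had a change of 0.17 (adjusted p = 0.911).

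Cytokines outside the chemokines gave 3 calls in 33 measured genes, beside 0.779% called up and 0.506% called down over all genes. IL32 had values of 10.25, 10.33 and 10.23 in SIRT6 + TNFα cells, and 8.62, 8.48 and 8.56 in SIRT6 cells (3.29-fold, adjusted p = 4.64e-10). The bone morphogenetic proteins split, BMP2 being called up at 11.02, 10.92 and 10.95 in SIRT6 + TNFα cells, against 9.73, 9.78 and 9.69 in SIRT6 cells (2.34-fold, adjusted p = 3.87e-12), while BMP4 was called down at 5.41, 5.38 and 5.19, against 5.99, 6.09 and 5.85 (1.57-fold lower, adjusted p = 0.00453). Without SIRT6 + TNFα replicate 3 the BMP4 change was -0.58, under the fold threshold. IL6 (-0.0206, adjusted p = 0.985) and IL1B (0.23, adjusted p = 0.414) were not called.

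Innate immune receptors and adaptors gave 5 rises in 29 measured genes by their brightest probe sets, beside 0.779% over all genes. A dimmer probe set of the list member IL6ST was also called up (log2 change 0.68, adjusted p = 0.00718 in limma). TLR7, an endosomal receptor of single-stranded RNA, had values of 6.00, 6.15 and 6.11 in SIRT6 + TNFα cells, and 2.97, 2.64 and 2.94 in SIRT6 cells (9.42-fold, log2 change 3.24, SE 0.17, adjusted p = 6.46e-11), and its second probe set rose by 0.77. IRAK2, a kinase below the Toll-like and interleukin 1 receptors, rose 2.78-fold (adjusted p = 3.67e-10). The flagellin receptor TLR5 had values of 4.90, 5.14 and 4.94 in SIRT6 + TNFα cells, and 4.19, 3.85 and 4.03 in SIRT6 cells (1.96-fold, adjusted p = 0.000168). IL18R1 and IL7R rose 1.9- and 1.55-fold, and IL7R came under the fold threshold without SIRT6 replicate 2 (log2 change 0.52). TLR2 (0.0184) and MYD88 (-0.36, adjusted p = 0.452) were not called.

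Immediate early genes, which respond within minutes to many stimuli, gave 4 rises in 25, beside 0.779% over all genes. IER3 had values of 11.76, 11.79 and 11.83 in SIRT6 + TNFα cells, and 9.39, 9.19 and 9.20 in SIRT6 cells (5.79-fold, adjusted p = 1.07e-14). JUNB rose 2.93-fold, MAFF 1.92-fold and the orphan receptor NR4A3 1.77-fold. FOS (-0.35, adjusted p = 0.182), EGR1 (0.0857), JUN (-0.0825), ATF3 (-0.0342) and MYC (-0.49, adjusted p = 0.0515) were not called. None of the 12 MAP kinase phosphatases was called by the limma test and fold, although DUSP4 (-0.57), DUSP8 (0.40) and DUSP16 (0.38) passed at an adjusted p under 0.05.

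Interferon response genes gave 2 rises in 43 and antigen presentation genes 1 in 20, beside 0.779% called up over all genes. Of 43 interferon response genes the transcription factors IRF1 (3.48-fold, adjusted p = 4.43e-13) and IRF2 (2.02-fold, adjusted p = 4.65e-05) were called up, while ISG15 had a change of 0.0533 and IFIT1 of -0.65 (adjusted p = 0.057). IRF1 had values of 8.74, 8.84 and 8.77 in SIRT6 + TNFα cells, and 7.0, 7.0 and 6.96 in SIRT6 cells, without overlap. Tapasin, TAPBP, which loads peptides on MHC class I, rose 2.22-fold (adjusted p = 3.7e-09) as the 1 call in 20 antigen presentation genes. TAP1 had a change of 0.51 at an adjusted p under 0.05, and HLA-B one of 0.0342.

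**Figure D4:**
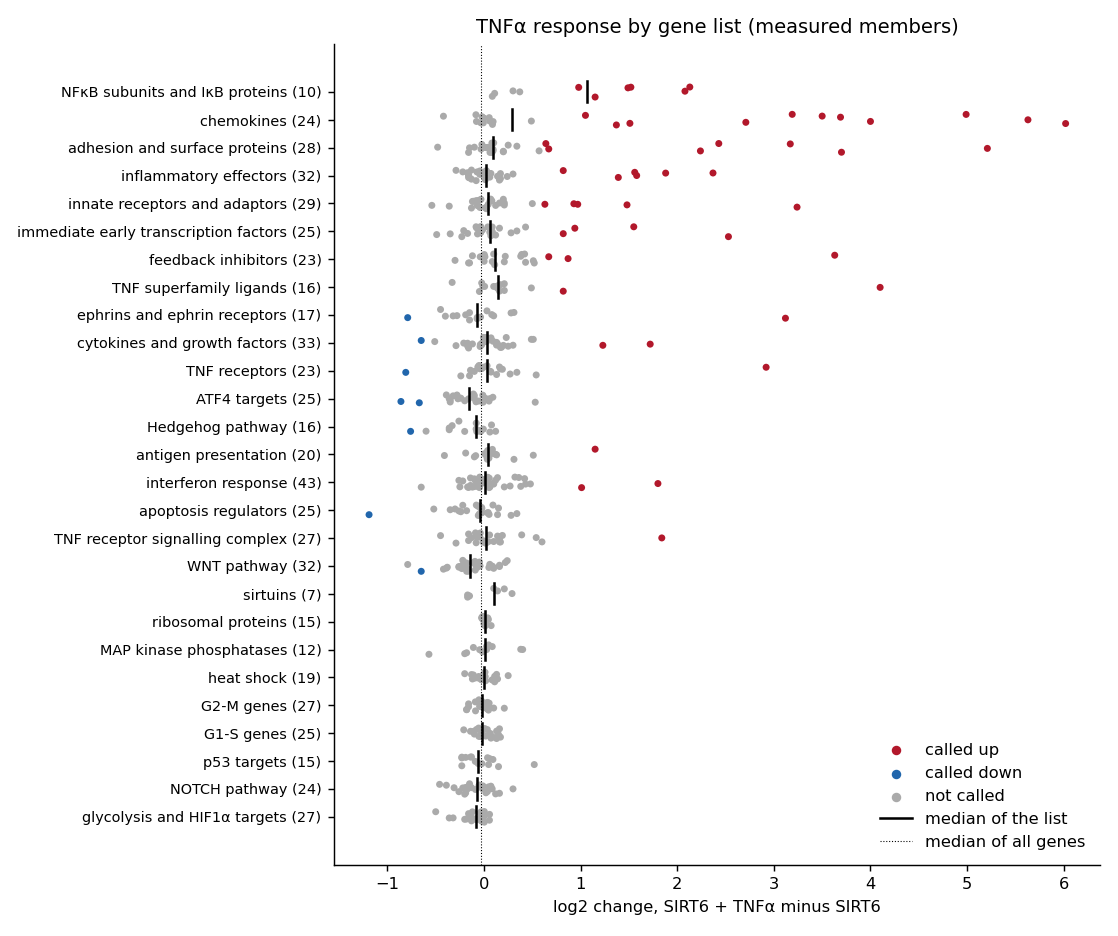
Log2 change (SIRT6 + TNFα minus SIRT6) of each measured member of the 27 gene lists, 1 point per gene, with the list median as a bar and the median of all genes (-0.0276) as a dotted line; numbers in brackets are measured members. The chemokine list holds 11 of the calls up and the NFκB list 6, and the lists of cell cycle, ribosomal, heat shock, p53, NOTCH and glycolysis genes hold 0 calls. Over all genes 0.779% were called up and 0.506% down.

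The falls were smaller. The lists, with 619 measured genes of the 19775, held 8 of the 100 genes called down, in 7 of the 27 lists. Over all genes 0.506% were called down. OR51E1, an olfactory-type receptor, had values of 3.47, 3.28 and 3.22 in SIRT6 + TNFα cells, and 5.54, 5.53 and 5.12 in SIRT6 cells (4.21-fold lower, log2 change -2.07, SE 0.23, adjusted p = 7.68e-06). PHACTR3, a regulator of protein phosphatase 1, had values of 5.38, 5.63 and 5.38 in SIRT6 + TNFα cells, and 6.95, 6.90 and 7.03 in SIRT6 cells (2.83-fold lower, adjusted p = 2.63e-06). The somatostatin receptor SSTR1 had values of 5.55, 5.05 and 4.83 in SIRT6 + TNFα cells, and 6.47, 6.68 and 6.54 in SIRT6 cells (2.69-fold lower, adjusted p = 7.24e-06). The stimulated arrays of SSTR1 were the more scattered, with replicate 1 the highest, and none reached the unstimulated arrays. WNT16, a secreted WNT ligand, had values of 6.04, 5.94 and 5.99 in SIRT6 + TNFα cells, and 7.24, 7.42 and 7.47 in SIRT6 cells (2.61-fold lower, adjusted p = 1.03e-06), on a probe set of the same type as that of CXCL2, and its other probe set changed by -0.28 (adjusted p = 0.25). PDGFRA was called down 2.3-fold, with 4.12 on SIRT6 + TNFα replicate 1 and 3.43 and 3.30 on the others, against 4.75, 4.82 and 4.89 in SIRT6 cells (adjusted p = 0.000492).

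BMF, a BH3-only protein that promotes apoptosis, was the 1 call among 25 apoptosis regulators, at 5.76, 5.87 and 5.73 in SIRT6 + TNFα cells, and 7.01, 6.92 and 6.99 in SIRT6 cells (2.28-fold lower, adjusted p = 1.96e-06). The anti-apoptotic genes MCL1 (0.0923) and CFLAR (-0.0213) were not called. Over all genes 0.779% were called up and 0.506% down. The protocadherin PCDH18 and neuropilin 1, NRP1, a receptor for semaphorins and VEGF, were 2.02- and 2.01-fold lower, and SERTM1 2.27-fold lower. The remaining large falls were ZNF503-AS2, DNAJC22, GPR39, TOX-DT, ZNF365 and OSR1, with log2 changes of -0.98 to -0.94. The call of TOX-DT (adjusted p = 0.0408) was lost when arrays were centred again (adjusted p = 0.0551) and without any 1 of the arrays except SIRT6 + TNFα replicate 1 (adjusted p = 0.11 to 0.181).

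The ephrin, Hedgehog, WNT and ATF4 lists gave 1 or 2 calls each by the brightest probe sets. Over all genes 0.779% were called up and 0.506% down. Of 17 ephrins and ephrin receptors the ligand EFNA1 was called up, at 9.06, 9.11 and 9.12 in SIRT6 + TNFα cells, and 6.04, 6.05 and 5.85 in SIRT6 cells (8.69-fold, adjusted p = 1.95e-13), and the receptor EPHA4 was called down 1.73-fold (adjusted p = 1.08e-06). PTCH1, the receptor of Hedgehog ligands and a target gene of that pathway, was the 1 call in 16 Hedgehog genes, at 9.15, 9.11 and 9.12 in SIRT6 + TNFα cells, and 9.87, 9.86 and 9.93 in SIRT6 cells (1.69-fold lower, adjusted p = 9.12e-07). GLI1 (-0.0343) was not called and HHIP changed by -0.36 (adjusted p = 0.00356), below the fold threshold. FZD4, a WNT receptor, was the 1 call in 32 measured genes of the WNT list (1.57-fold lower, adjusted p = 2.53e-06), and the list median was -0.14. The WNT16 fall lies outside these 32 genes, and 4 of the 36 listed genes had no probe set of their own and were not counted. Among these, the WNT receptor gene FZD8 shares a probe set with the microRNA gene MIR4683. That probe set was called down (log2 change -0.73, adjusted p = 0.000461 in limma). Among 25 ATF4 targets VLDLR and TRIB3 were called down 1.81- and 1.59-fold, and the list median was -0.16. VLDLR is a lipoprotein receptor and TRIB3 a pseudokinase of the stress response.

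None of 24 NOTCH genes, 27 glycolysis and HIF1α targets, 25 G1-S genes, 27 G2-M genes, 19 heat shock genes, 15 p53 targets, 15 ribosomal protein genes and 7 sirtuins was called, by the limma test and the fold threshold. Over all genes 0.779% were called up and 0.506% down. A count of 0 in these lists, or in the MAP kinase phosphatases, is near that share. At any fold, adjusted p values under 0.05 were given by JAG1, JAG2 and HEY1 of the NOTCH list (-0.31, -0.46 and -0.22), EGLN3 (-0.50) and GADD45B (0.52). HSP90AA1 had values of 13.19, 13.19 and 13.15 in SIRT6 + TNFα cells, and 13.19, 13.18 and 13.24 in SIRT6 cells. GAPDH, a glycolytic enzyme, had 13.07, 13.07 and 13.09 in SIRT6 + TNFα cells, and 13.08, 13.08 and 13.07 in SIRT6 cells. These overlapped, as did CCNB1, MDM2 and RPL32. SIRT1, the best studied sirtuin, had 9.33 ± 0.14 in SIRT6 + TNFα cells and 9.04 ± 0.0822 in SIRT6 cells (SD, n = 3 each), which did not pass (log2 change 0.29, adjusted p = 0.224).

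Of the genes called by their brightest probe set, 60 were in a list and 194 in none, and the groups named next were chosen after the values were seen. Transcription factors of development were called in both directions. HAND1 (1.20), MSX1 (1.19), MYB (0.91), ETS1 (0.89), GCM1 (0.85), SOX9 (0.68) and KLF5 (0.60) were called up, and OSR1 (-0.94), EOMES (-0.84), LHX4 (-0.83), DLX3 (-0.83), EYA1 (-0.81), HOXD1 (-0.80), DMRT3 (-0.79), LMO2 (-0.77), MEOX2 (-0.74), EBF2 (-0.65) and ISL1 (-0.64) down. The receptor tyrosine kinases ROR2 (-0.92), KIT (-0.87), PDGFRA and EPHA4 were called down. Somatostatin receptors went opposite ways, SSTR2 being called up (1.44) and SSTR1 down. Of the cyclic nucleotide phosphodiesterases PDE9A (0.99) was called up and PDE4A (-0.83), PDE3A (-0.69) and PDE4B (-0.66) down. The peptide hormone genes CALCB (1.26), CGA (0.98) and CALCA (0.65) were called up. The tyrosine kinase BTK (1.69), the transcription factors NFATC2 (1.34) and STAT5A (0.96), and the cytokine IL17F (1.04) were also called up. EGFL6, a secreted matrix protein, was the strongest rise outside the lists, at 6.74, 6.56 and 6.42 in SIRT6 + TNFα cells, and 3.63, 3.38 and 3.22 in SIRT6 cells (8.97-fold, adjusted p = 3.12e-09).

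Whether the response depended on the transfected SIRT6 was addressed by the difference of responses between SIRT6 cells and the other cells, which shares no array between the 2 responses compared. In no comparison did a probe set pass the limma interaction test at an adjusted p under 0.05. Against empty vector cells 0 passed, the smallest adjusted p was 1, and 1096 probe sets (2%) had an unadjusted p under 0.05. Against untransfected cells 0 passed, the smallest adjusted p was 0.171, and 1570 (2.87%) had an unadjusted p under 0.05. Against H133W cells 0 passed, the smallest adjusted p was 0.851, and 2192 (4.01%) had an unadjusted p under 0.05. A plain linear model called 0, 2 and 0 probe sets. The precision of 3 arrays per condition sets a limit. Over the 462 probe sets called in SIRT6 cells the 95% interval of the difference to empty vector cells had a median half-width of 0.39 log2 units, and for 282 of them the whole interval lay within a 1.5-fold difference. For the rest the interval reached beyond that size. The intervals are for averages over transfected and untransfected cells of a well, so that they do not bound the difference within transfected cells.

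The response of CCL2 was 4.0 in SIRT6 cells and 4.0 in empty vector cells (difference 0.00227, 95% interval -0.47 to 0.47), and that of TNFAIP3 3.63 and 3.62 (0.0106, -0.26 to 0.28). CXCL10 responded by 5.63 in SIRT6 cells and 5.87 in empty vector cells (-0.24, -0.75 to 0.28), and NFKBIA by 2.13 and 2.34 (-0.21, -0.43 to 0.000345). The responses were smaller in SIRT6 cells for IER3 (2.53, against 2.87 in empty vector cells, difference -0.34, -0.55 to -0.13) and larger for TLR7 (3.24, against 2.64, difference 0.59, 0.10 to 1.08), TLR5 (0.97, against 0.48, 0.49, 0.0944 to 0.89) and MAFF (0.94, against 0.48, 0.46, 0.0193 to 0.90). MYRFL had a response of 1.02 in SIRT6 cells and 0.13 in empty vector cells (0.89, 0.42 to 1.36), and was among the 5 genes of smallest p in that comparison. These intervals are for single genes and are not adjusted, and each of these differences had an adjusted p of 1. Against untransfected cells CALCB, which encodes a calcitonin gene-related peptide, had the smallest p, with a response of 1.26 in SIRT6 cells and 1.81 in untransfected cells. It did not pass (adjusted p = 0.171), but it passed with array weights (adjusted p = 0.0211), without dim probe sets (0.0308), in a plain linear model (0.0188), with a variance trend (0.0307) and without SIRT6 + TNFα replicate 3 (0.0332).

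The rises called in SIRT6 cells were mostly shared with the other cells, and the falls less so. Of the 275 probe sets called up in SIRT6 cells, 221 were also called up in empty vector cells (80.4% of the SIRT6 calls and 69.3% of the 319 vector calls, which were 0.583% of all probe sets), 225 in untransfected cells (81.8% and 68.4% of 329, 0.602% of all) and 190 in H133W cells (69.1% and 64% of 297, 0.543% of all). Of the 187 called down, 97 were called down in empty vector cells (51.9% and 64.2% of 151, 0.276% of all), 74 in untransfected cells (39.6% and 77.9% of 95, 0.174% of all) and 111 in H133W cells (59.4% and 35.5% of 313, 0.572% of all). None was called in the opposite direction. The H133W counts include replicate 3 of H133W cells with TNFα, the array of lowest weight, and its part in them was not tested. All 3 other responses called 161 of the rises and 51 of the falls, while 22 rises and 47 falls were called in SIRT6 cells alone. Those 22 had a median change of 0.68 in SIRT6 cells, against 0.41, 0.37 and 0.40 in empty vector, untransfected and H133W cells, and 19 of them had a positive change in all 4. The 47 had medians of -0.66 in SIRT6 cells and -0.44, -0.33 and -0.42 in the others, with 46 negative in all 4. They were chosen by the SIRT6 arrays, which sets them apart by construction, and no difference of theirs passed the interaction test as fitted over all 24 arrays. Of the 47, 1 probe set without a gene name had a change of -0.61 in SIRT6 cells and 0.53 in untransfected cells (difference -1.14, adjusted p = 0.674), and it passed with array weights (adjusted p = 0.0211) and without replicate 3 of untransfected cells with TNFα (adjusted p = 0.0124).

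**Figure D5:**
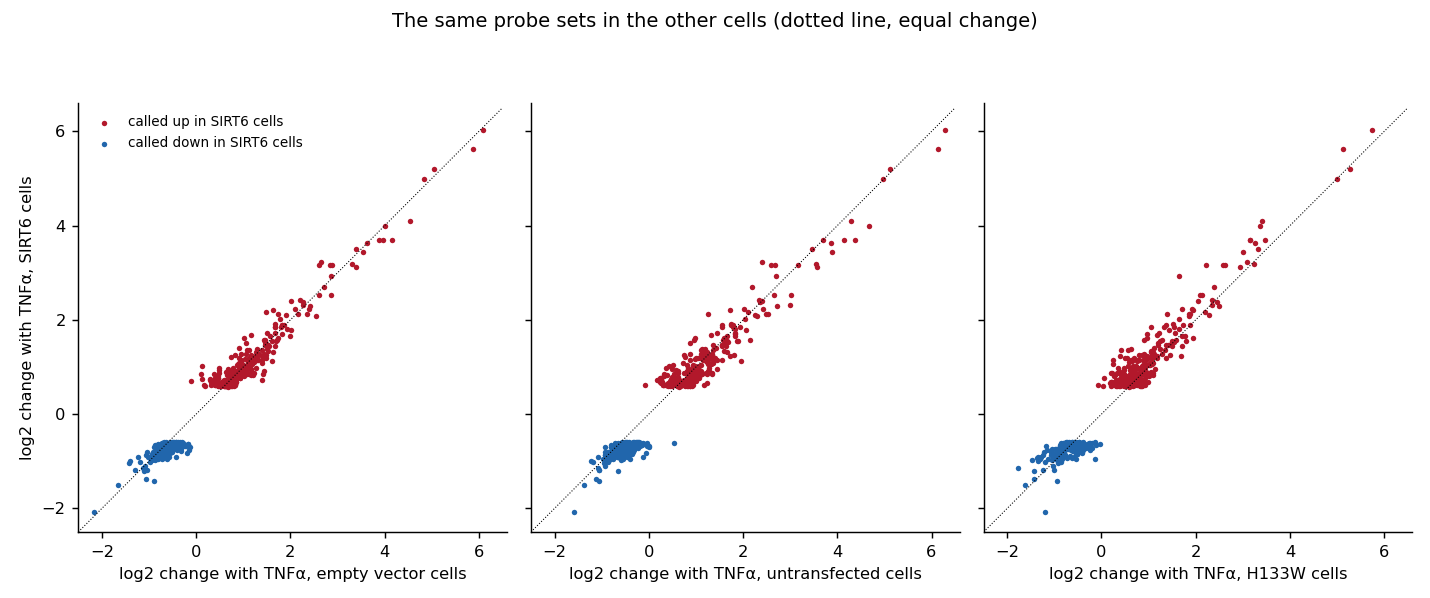
Log2 change with TNFα in SIRT6 cells (vertical) against the change of the same probe set in empty vector, untransfected and H133W cells (horizontal), for the 275 probe sets called up and the 187 called down in SIRT6 cells. Points lie along the dotted line of equal change, and the empty band around 0 on the vertical axis comes from the fold threshold of 1.5.

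Probe sets chosen by the responses of empty vector and untransfected cells gave the reverse view. The spread used in that choice was estimated over all 24 arrays, the SIRT6 arrays among them. Both empty vector and untransfected cells called 250 probe sets up, and 206 of them were called up in SIRT6 cells. Their median change was 0.97 in SIRT6 cells, against 1.03 in empty vector and 1.07 in untransfected cells, the arrays that chose them. Over 4-fold, all 34 were called in SIRT6 cells, with a median of 3.14, against 2.86 and 2.86. Probe set by probe set, 16 of the 34 changed more in SIRT6 cells than in empty vector cells and 11 of 34 more than in untransfected cells, and the median difference to empty vector cells was -0.0249. Under 2-fold, 78 of 118 were called, with a median of 0.67, against 0.75 and 0.83. Of 69 probe sets called down in both, 63 were called down in SIRT6 cells (median -0.83, against -0.81 and -0.76).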

How the data were processed

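Affymetrix HG-U133 Plus 2.0 arrays were read for 24 RNA samples of 8 conditions (n = 3 each). The authors deposited log2 expression values, normalized by robust multi-array averaging (RMA) in ArrayStudio 4.0 per the methods of the study. These were used as given, with a range of 1.52 to 13.75. The number of arrays limits the precision. Of 54675 probe sets, 41097 had 1 gene, 1801 several and 11777 no name here. Names came from the platform annotation, and 42844 of the 42898 named probe sets were updated through Entrez identifiers.

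A group-means model over all 24 arrays was fitted in limma 3.58.1 (R 4.3.3, 16 residual degrees of freedom), with empirical Bayes moderation and Benjamini-Hochberg adjustment over all probe sets. Differences of responses were contrasts of this model, called at an adjusted p under 0.05, with intervals that were not adjusted. On simulated data for the SIRT6 response, 19, 43, 48, 50 and 50 of 50 changed probe sets were recovered at folds of 1.5, 1.75, 2, 3 and 4, with 3 false calls among the unchanged probe sets. The genes named were the 15 largest rises and falls, up to 5 called and 2 uncalled members of each list, and the 5 of smallest p in each difference, and any other was chosen after its values were seen. Members and lists were chosen with earlier results of these data known. The alternatives were array weights, recentring, quantile normalization, a variance trend, a plain linear model, the 6 arrays alone, dim or unnamed probe sets left out, other fold thresholds, a replicate block, and leaving out arrays.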

Additional observations from a re-analysis of the deposited data

How the results depend on the processing

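Without a fold threshold the response of SIRT6 cells held 503 rises and 638 falls, and over 2-fold it held 123 and 12, against 275 and 187 at 1.5-fold. Leaving out 1 of the 6 arrays at a time gave 242 to 258 rises and 141 to 208 falls. Under every other alternative, the counts stayed within 1.5 times those reported (211 to 329 rises and 163 to 268 falls), also without the 3 arrays of lowest weight, an alternative added after the data were seen (307 and 235). With a replicate block there were 268 rises and 185 falls, of which 267 and 183 were among those reported. The labels do not tie the replicate numbers to shared cultures, and the correlations of same-numbered arrays about their group means were -0.104, -0.038 and 0.0167, so that the block has no support in the design. The difference of responses to empty vector cells stayed at 0 probe sets throughout, also in the range of 0 to 0 without 1 array. Against untransfected cells it gave 2 with array weights, 2 with a plain linear model, 1 without dim probe sets and 1 with a variance trend, and 0 to 1 without 1 array. CALCB was called in each of those 4 fits and without SIRT6 + TNFα replicate 3, beside CDC42EP3 in the plain linear model and the unnamed probe set described above with array weights or without replicate 3 of untransfected cells with TNFα. Against H133W cells it gave 1 (LINC00845) with array weights and 0 to 0 without 1 array. The cause was not tested. The replicate block left each difference at 0. Of the log2 changes of named genes, 1606 of 1648 values under the alternatives stayed called or stayed uncalled, 40 lost the call and 2 gained it. Of the changes that were called in either fit, 0 turned sign. Changes of sign in genes called in neither fit were not counted.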
